A study of Mus musculus with 16 samples.

Results

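The airway surface liquid is set by epithelial cells that secrete chloride and bicarbonate and absorb sodium, and 10 mouse genes of those routes are described here in brushed airway epithelium. They were chosen by name, with earlier results of these data known. Slc26a4, Slc26a9, Cftr, Ano1 and Slc12a2 stand for anion secretion, and Kcnj16 and Kcnq1 for the potassium channels beside it. Scnn1a, Scnn1b and Scnn1g stand for sodium absorption. All 10 of 10 had a probe on the microarray and were among the 18566 genes and transcripts tested. The array held 14 probes for them, of which 11 passed the filter on dim probes, and where a gene had several the one with the brightest signal was used.

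The 16 arrays, 4 per group, compared FvB mice labelled beta6 ko, which lack the integrin subunit encoded by Itgb6, with wild type FvB mice. The ko OVA and wt OVA mice were sensitized intraperitoneally with 20 ug of ovalbumin (OVA), a chicken egg protein used as a model allergen, on days 1, 4 and 7 and then given 10 ug intranasally once a week for 9 weeks. The ko saline and wt saline mice received saline in place of OVA by the same routes. Mice were 6-8 weeks old at sensitization, and the epithelium was brushed from the airways 24 h after the last challenge. The exon or cells in which Itgb6 is disrupted, and whether mice were pooled, are not given in the sources used here.

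Sodium leaves the airway surface through ENaC, the epithelial sodium channel, which is assembled from alpha, beta and gamma subunits in the apical membrane. Chloride enters the cell from below through the cotransporter NKCC1 and leaves apically through channels such as CFTR and the calcium-activated ANO1, while pendrin, the product of Slc26a4, exchanges chloride for bicarbonate. Potassium channels keep the cell's voltage favourable for this secretion. Pendrin is also the apical iodide transporter of the thyroid and is known from asthma models as a gene that the type 2 cytokine IL-13 induces in airway epithelium.

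The promoters of the 3 genes that changed are shown because 2 of them, Scnn1g and Scnn1b, are neighbours on chromosome 7 that fell in parallel, while Slc26a4 on chromosome 12 moved the other way. Each is 300 bases, 250 before and 50 after the annotated start, from RefSeq on GRCm38.p6, and capitals mark the motifs found on either strand. The motifs searched were TTC and GAA separated by any 4 or any 3 bases, which STAT factors are known to bind, the hormone receptor half-site TGTTCT, the TATA box TATAAA and the GC box GGGCGG.
Slc26a4, chr12:31559935-31560234, minus strand: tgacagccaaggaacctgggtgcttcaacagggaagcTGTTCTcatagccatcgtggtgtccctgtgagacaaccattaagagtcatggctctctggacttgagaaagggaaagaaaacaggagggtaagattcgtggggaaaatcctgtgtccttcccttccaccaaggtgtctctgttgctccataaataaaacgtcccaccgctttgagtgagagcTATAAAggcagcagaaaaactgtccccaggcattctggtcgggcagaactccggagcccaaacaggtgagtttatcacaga
Scnn1b, chr7:121864788-121865087, plus strand: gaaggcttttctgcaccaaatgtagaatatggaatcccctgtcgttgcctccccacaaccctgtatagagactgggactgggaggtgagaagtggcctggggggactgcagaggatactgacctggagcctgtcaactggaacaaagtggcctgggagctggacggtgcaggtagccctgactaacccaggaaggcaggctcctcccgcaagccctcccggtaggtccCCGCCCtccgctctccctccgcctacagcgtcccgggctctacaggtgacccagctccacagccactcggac
Scnn1g, chr7:121734229-121734528, plus strand: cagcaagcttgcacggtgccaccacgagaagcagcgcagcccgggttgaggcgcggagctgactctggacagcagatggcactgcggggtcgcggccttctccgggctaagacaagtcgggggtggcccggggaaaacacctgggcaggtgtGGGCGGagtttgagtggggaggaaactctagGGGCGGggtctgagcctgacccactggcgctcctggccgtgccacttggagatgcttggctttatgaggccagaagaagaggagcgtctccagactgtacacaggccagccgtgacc

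The Slc26a4 window held TATAAA 31 bases before its start and 1 TGTTCT, and its GC content lay below the median of all promoters. The Scnn1b and Scnn1g windows held GGGCGG 1 and 2 times, no TATAAA, and 61.7% and 64.7% G and C. Over all 32851 promoters of the table the median GC content was 52.7%, TATAAA occurred in 13.6% and GGGCGG in 35.7%. TGTTCT occurred in 19% of promoters. The STAT motifs, found in 6.95% and 8.3% of promoters, were not among the letters of these 3 windows. Windows from RefSeq were searched for 7 of the 10 genes, with 4 windows for Kcnj16, and chromosome 18, which holds Slc12a2, was left out. Of these, 1 Kcnj16 window held the form with 3 bases between, as TTCAGAGAA. The 2 GC-rich windows of Ano1 and Cftr held GGGCGG 4 and 6 times. TATAAA was not particular to Slc26a4: the Slc26a9 window held it at -30 and -28 from its start, and 1 Kcnj16 window at -133. Scnn1g and Scnn1b are separated in the annotation by 1 gene, Gm36848, and by 0 protein-coding genes.

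Signals are given on a log2 scale relative to the 75th percentile of each array, so 0 is the level of that percentile and a step of 1 is a doubling. Values under -3.32 were set to -3.32, a floor common to all arrays, and fold changes that reach it are understated. Tests used limma on all 16 arrays with Benjamini-Hochberg adjustment over all 18566 features, and a gene was called at an adjusted p below 0.05. Labels do not say that replicates were separate mice, so p-values measure the spread between these samples. In tissue of mixed cells, fewer cells of a type and less RNA per cell cannot be told apart.

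Between 43.3% and 74.5% of probes were well above background per array. The lowest share was on ko OVA replicate 4, whose 75th percentile of intensity, 78.0, was also the lowest. At the other end, wt OVA replicates 1 and 2 stood apart with 74.5% and 72.7%, against at most 62.7% on the other arrays. For the genes chosen by name, a result is given without these arrays where that ended its call. For the other gene lists, calls lost without these arrays are not given one by one. The Itgb6 probe used stood at -0.98, -1.71, -0.96 and -1.02 in ko OVA, against -0.56, -0.57, -0.59 and -0.64 in wt OVA. After saline it stood at -1.02, -0.78, -0.73 and -0.92 in ko and at -0.88, -0.93, -0.81 and -0.39 in wt. The ko OVA arrays lay below every wt OVA array, the saline groups overlapped, and neither difference was called, with limma adjusted p of 0.547 after OVA and 0.971 after saline. A second, dimmer probe, well above background on all 16 arrays, stood at -2.48 to -2.18 in ko OVA, against -1.83 to -1.21 in wt OVA, and at -2.44 to -1.83 in ko saline, against -2.12 to -1.52 in wt saline, and was not tested. The position of these probes relative to the disrupted part is not given in the sources used here, so they do not check the ko label.

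After OVA, the chloride and bicarbonate exchanger Slc26a4 rose steeply in both genotypes and the ENaC beta subunit Scnn1b fell in both. The gamma subunit Scnn1g fell over both genotypes. Of the 7 other genes, 0 passed the test for OVA in these comparisons. In the anion secretion group 1 of the 5 genes rose and 0 fell. In ko, 2 of the 10 genes were called (1 higher, 1 lower), against 0.749% of all features, 0.479% higher and 0.269% lower. In wt, 2 were called (1 higher, 1 lower), against 2.61% of all features, 1.56% higher and 1.06% lower. Over both genotypes, 3 were called (1 higher, 2 lower), against 6.46% of all features, 3.72% higher and 2.74% lower. The median change of the 5 secretion genes was -0.09 in ko and 0.18 in wt, that of the 3 sodium absorption genes -1.05 in ko and -0.81 in wt, and that of all features 0.00 in each. The OVA and saline arrays did not overlap for 3 of the 10 genes in ko (5.23% of all features), 3 in wt (9.28%) and 2 over both genotypes (1.15%). Because the 10 genes were chosen with earlier results of these data known, their counts beside these shares are a description only.

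**Figure D1:**
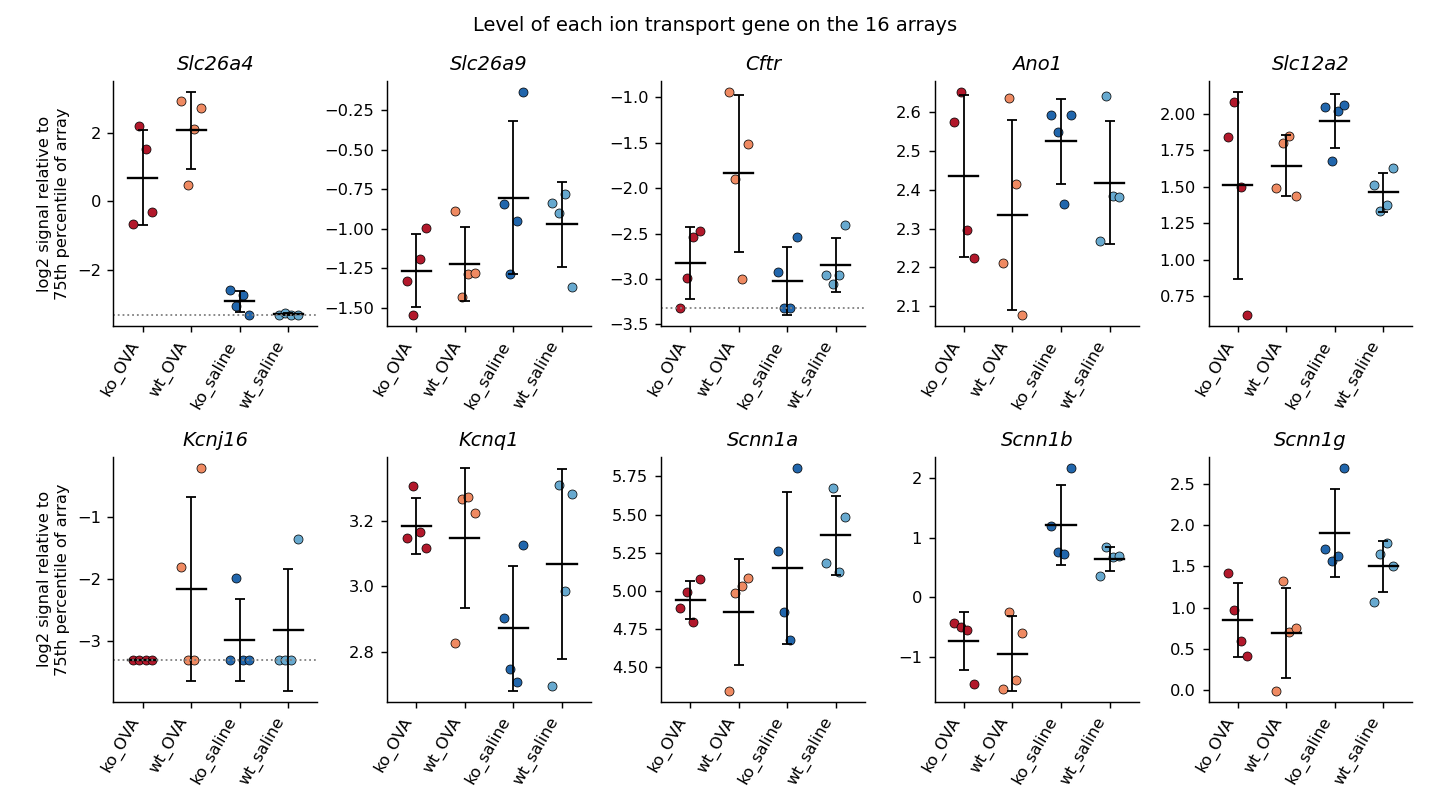
Each point is 1 array, with the log2 signal relative to the array's 75th percentile on the vertical axis and the 4 groups on the horizontal axis. Long bars are group means, error bars are SDs (n = 4 arrays), and the dotted line is the floor at -3.32. In Slc26a4 all 8 OVA arrays lie above all saline arrays, in Scnn1b all 8 lie below them, and the vertical scale differs between panels.

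Slc26a4 was dim after saline, at or within 1 log2 unit of the floor, and brighter after OVA in both genotypes. In ko OVA it stood at -0.68, 2.21, 1.54 and -0.30, against -2.61, -3.06, -2.74 and -3.32 in ko saline. The wt OVA arrays stood at 2.96, 0.48, 2.14 and 2.75, against -3.32, -3.27, -3.32 and -3.32 in wt saline. All 8 OVA arrays lay above all 8 saline arrays. The probe was well above background on 4 of 4 arrays in each OVA group, on 4 of 4 in ko saline and on 2 of 4 in wt saline.

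The change in Slc26a4 was 3.63 ± 0.60 in ko (log2, SE, 12.4-fold, limma adjusted p = 0.00971) and 5.39 ± 0.60 in wt (41.8-fold, limma adjusted p = 0.000322). Over both genotypes it was 4.51 ± 0.42 (limma adjusted p = 3.59e-05). With a lower floor the wt change was 5.99, because 3 of its 4 saline values were at the floor. The call in ko was lost when only the 8 ko arrays were fitted (limma adjusted p = 0.165), and it was kept under the other 11 alternatives. In order of mean level the groups ran wt OVA (2.08 ± 1.12), ko OVA (0.70 ± 1.40), ko saline (-2.93 ± 0.32) and wt saline (-3.31 ± 0.02, SD, n = 4 each). The 2 OVA groups overlapped, as did the 2 saline groups.

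The rise in Slc26a4 went with a rise in markers of mucous (goblet) cells, the mucin-secreting cells of the airway surface. Of the 9 measured markers, 6 rose in ko and 6 in wt, with a median change of 1.73 in both, and none was at the floor throughout a group. Clca1, Agr2 and Itln1 each lacked a value on at least 1 array. The summed linear level of the 6 markers measured on all 16 arrays was 69.5 to 227.3 in ko OVA, against 44.7 to 69.0 in ko saline, and 117.5 to 182.2 in wt OVA, against 49.5 to 82.0 in wt saline. The part of mucous cells in the Slc26a4 result was not tested. The 3 genes whose signal ran most closely with Slc26a4 over the 16 arrays were Scin, an actin-severing protein, with r of 0.96, Arfgef3 with 0.96 and Creb3l4, a membrane-bound transcription factor, with 0.96. These correlations share the OVA and saline groups as their main spread.

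The other anion secretion genes did not pass the test. Cftr, the cyclic AMP-regulated chloride and bicarbonate channel, stood at -3.32, -2.98, -2.54 and -2.47 in ko OVA, against -2.92, -3.32, -3.32 and -2.53 in ko saline. In wt OVA it stood at -0.94, -1.90, -3.00 and -1.51, against -2.96, -3.05, -2.96 and -2.40 in wt saline. Thus 3 of the 4 wt OVA arrays lay above every wt saline array and 1 lay within them, while the ko groups overlapped.

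The Cftr change was 0.19 ± 0.35 in ko (limma adjusted p = 0.975) and 1.01 ± 0.35 in wt (limma adjusted p = 0.161, 95% interval 0.25 to 1.76). Without wt OVA replicate 3 the gene was called, with a wt change of 1.39 (adjusted p = 0.0306) and a change over both genotypes of 0.79 (0.0321). A second Cftr probe was well above background on 2 arrays, wt OVA replicates 1 and 2, which were also the arrays with the most probes detected. The genes most like Cftr over the 16 arrays were Trerf1 (r = 0.92), Dbn1 (0.90) and Kif5a (0.89).

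Ano1, the calcium-activated chloride channel, held nearly the same level everywhere. It stood at 2.58, 2.65, 2.30 and 2.22 in ko OVA, against 2.59, 2.55, 2.36 and 2.59 in ko saline, and at 2.21, 2.64, 2.41 and 2.08 in wt OVA, against 2.27, 2.64, 2.38 and 2.38 in wt saline. The groups overlapped. Its OVA change was -0.09 in ko (95% interval -0.38 to 0.20) and -0.08 in wt (-0.37 to 0.20), the narrowest intervals among the 10 genes.

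Slc26a9, a chloride channel of the same family as pendrin, had a mean of -1.27 ± 0.23 in ko OVA and -0.80 ± 0.48 in ko saline, and of -1.22 ± 0.23 in wt OVA and -0.97 ± 0.27 in wt saline (SD, n = 4 each). Its changes of -0.46 in ko (limma adjusted p = 0.515) and -0.25 in wt (0.590) were opposite in sign to those of Slc26a4 and did not pass the test. Slc12a2, which encodes the basolateral cotransporter NKCC1 and lies on chromosome 18, stood at 1.84, 2.08, 1.50 and 0.62 in ko OVA, against 2.05, 1.67, 2.02 and 2.06 in ko saline. In wt OVA it stood at 1.49, 1.80, 1.85 and 1.44, against 1.51, 1.34, 1.37 and 1.63 in wt saline. The change was -0.44 in ko (95% interval -0.95 to 0.07) and 0.18 in wt (-0.33 to 0.69), with limma adjusted p of 0.615 and 0.739.

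**Figure D2:**
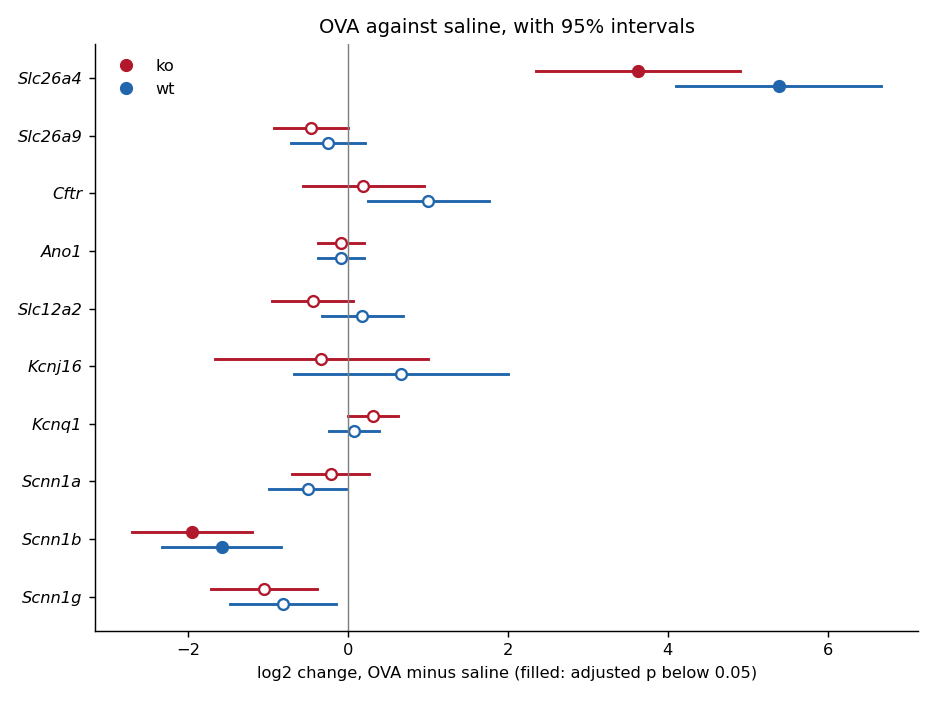
Points are log2 changes of OVA minus saline and lines their 95% intervals from limma, for ko (red) and wt (blue), and filled points have an adjusted p below 0.05. Slc26a4 (3.63 in ko, 5.39 in wt) and Scnn1b (-1.95 in ko, -1.58 in wt) are the filled pairs.

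Of the 2 potassium channel genes, Kcnq1 encodes the pore of a basolateral channel and Kcnj16 an inward rectifier subunit, Kir5.1. Kcnq1 stood at 3.15, 3.31, 3.17 and 3.12 in ko OVA, against 2.90, 2.75, 2.71 and 3.13 in ko saline, so that 3 of the 4 ko OVA arrays lay above every ko saline array. In wt OVA it stood at 2.83, 3.26, 3.27 and 3.22, against 2.70, 3.31, 2.98 and 3.28 in wt saline, and the groups overlapped. The change was 0.31 ± 0.15 in ko (limma adjusted p = 0.514) and 0.08 ± 0.15 in wt (0.823).

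Kcnj16 was at the floor on 12 of the 16 arrays, all 4 of ko OVA among them. It was off the floor on wt OVA replicates 1 (-1.81) and 4 (-0.21), on ko saline replicate 2 (-1.99) and on wt saline replicate 4 (-1.36). Its changes of -0.33 in ko and 0.66 in wt had standard errors of 0.62 each and limma adjusted p of 0.980 and 0.620. The other 2 Kcnj16 probes were well above background on 2 and 1 arrays.

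Those 4 arrays were also the 4 with the highest mean log2 level of the 7 measured thyroid markers, which was -0.50 to -0.18 on them and -2.35 to -0.89 on the other 12. Tg, which encodes thyroglobulin, stood at 5.94 to 7.30 on them and at -1.27 to 6.22 on the other 12. The summed linear level gave another order: it was 66.2 on wt OVA replicate 1 and 78.0 on wt saline replicate 3, where Kcnj16 was at the floor, and Tg stood at 5.94 and 6.22 on these arrays. The summed linear level of the 7 markers was 3.57 to 38.9 in ko OVA, 12.3 to 128.7 in wt OVA, 4.84 to 164.5 in ko saline and 9.95 to 152.0 in wt saline. Slc5a5, Pax8, Duoxa2 and Iyd were at the floor throughout ko OVA, Iyd throughout wt OVA, Pax8 and Duoxa2 throughout ko saline, and Slc5a5, Pax8 and Iyd throughout wt saline. On the 2 saline arrays with the highest thyroid mean, Slc26a4 stood at -3.06 (ko saline replicate 2) and -3.32 (wt saline replicate 4). Cftr stood at -0.94 and -1.51 on wt OVA replicates 1 and 4, which had high thyroid means, and at -1.90 and -3.00 on wt OVA replicates 2 and 3. On the other 2 arrays of high thyroid mean it stood at -2.40 (wt saline replicate 4) and -3.32 (ko saline replicate 2). The part of thyroid tissue in the Kcnj16, Cftr and Slc26a4 values was not tested. Of the 7 thyroid markers, 0 were called for OVA in ko or wt.

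**Figure D3:**
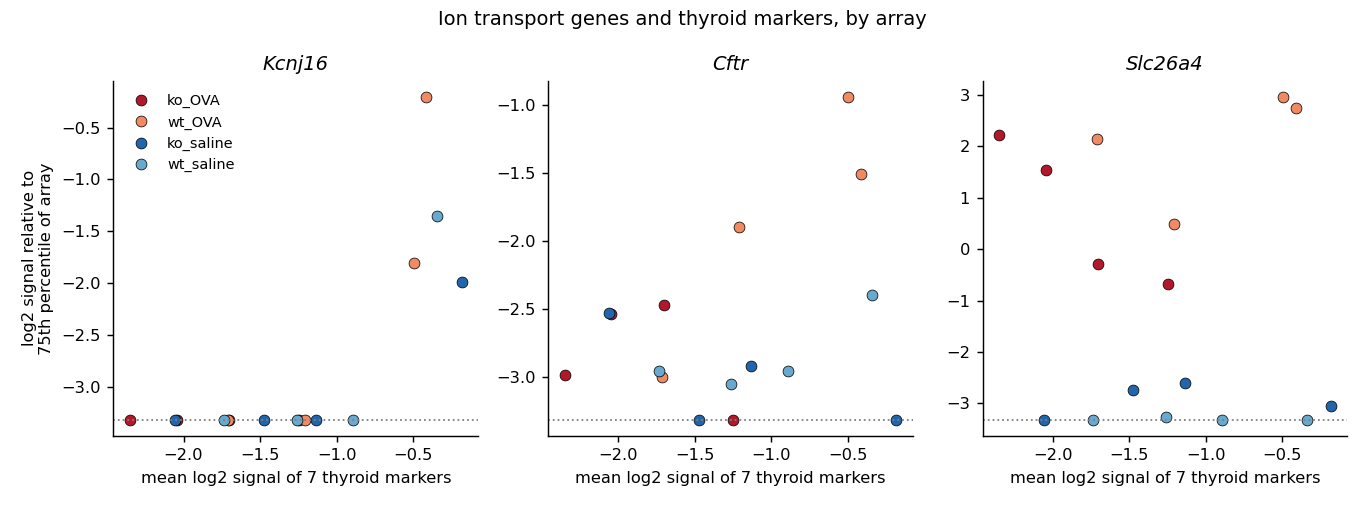
Each point is 1 array. The horizontal axis is the mean log2 signal of 7 thyroid markers, the vertical axis the log2 signal of Kcnj16, Cftr or Slc26a4, and the dotted line the floor at -3.32. Kcnj16 leaves the floor only on the 4 arrays at the right, with thyroid means of -0.50 to -0.18, and Slc26a4 lies at -3.32 to -2.61 on the 8 saline arrays.

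All 3 ENaC subunit genes had negative OVA changes in both genotypes, and 1 of the 3 passed the test within a genotype. Scnn1b, the beta subunit, stood at -0.43, -0.49, -0.55 and -1.46 in ko OVA, against 1.20, 0.75, 0.73 and 2.17 in ko saline. The wt OVA values were -1.54, -0.25, -1.38 and -0.59, against 0.35, 0.84, 0.68 and 0.69 in wt saline. All 8 OVA arrays lay below all 8 saline arrays.

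Scnn1b changed by -1.95 ± 0.35 in ko (3.85-fold lower, limma adjusted p = 0.0191) and by -1.58 ± 0.35 in wt (2.99-fold lower, limma adjusted p = 0.0273). Over both genotypes the change was -1.76 ± 0.25 (limma adjusted p = 0.000767) and was called under all 11 alternatives. Within a genotype the call was less stable: the wt call was lost without wt OVA replicates 1 and 2 (adjusted p = 0.108), and also without each of wt OVA replicates 1 and 3 and of the 4 wt saline arrays alone (adjusted p of 0.0516 to 0.0978). The ko call was lost without ko OVA replicate 4 (0.0608) or ko saline replicate 1 (0.0577). With the replicate number as a block the wt adjusted p was 0.0544. Within the 3 slides that held both groups, the Scnn1b change ran from -2.72 to -1.24 in ko and from -2.14 to -0.93 in wt, with no test.

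Scnn1g, the gamma subunit, stood at 1.42, 0.97, 0.60 and 0.41 in ko OVA, against 1.72, 1.57, 1.62 and 2.70 in ko saline. The wt OVA arrays had -0.01, 1.33, 0.71 and 0.75, against 1.07, 1.65, 1.78 and 1.51 in wt saline. The ko groups did not overlap, and in wt 3 of the 4 OVA arrays lay below every saline array. The change was -1.05 ± 0.31 in ko (limma adjusted p = 0.185), -0.81 ± 0.31 in wt (0.201) and -0.93 ± 0.22 over both genotypes (1.90-fold lower, 0.0223). The call over both genotypes was lost with median scaling (0.119), with slide as a block (0.0657) and with array position as a block (0.226).

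Scnn1a, the alpha subunit, stood at 4.89, 4.99, 4.80 and 5.08 in ko OVA, against 5.26, 4.87, 4.68 and 5.81 in ko saline. In wt OVA it stood at 4.35, 4.99, 5.03 and 5.09, against 5.18, 5.67, 5.13 and 5.48 in wt saline. The wt groups did not overlap, by the small gap between 5.09 and 5.13, and the ko groups did. The change was -0.21 ± 0.23 in ko (limma adjusted p = 0.881), -0.50 ± 0.23 in wt (0.281) and -0.36 ± 0.16 over both genotypes (0.226). A second, dimmer Scnn1a probe gave changes of -0.25 in ko and -0.41 in wt, of the same sign.

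Scnn1b and Scnn1g tracked each other across arrays, with r of 0.93 over the 16 arrays and 0.86 after the group means were removed. Each was also among the genes most like the other in the whole table. Scnn1a had r of 0.64 with Scnn1b and 0.67 with Scnn1g. Slc26a4 had r of -0.83 with Scnn1b over the 16 arrays and -0.17 within groups, so their opposition lay between the OVA and saline groups. The correlations are a description over arrays that share their scaling.

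The gene closest to Scnn1b over the 16 arrays was Sftpb (r = 0.94), which encodes surfactant protein B, and the third was the secretoglobin Scgb1c1 (0.93). Sftpb changed by -2.56 in ko (limma adjusted p = 0.000932) and by -2.88 in wt (0.000232). It was the 1 of 9 measured alveolar epithelium markers called in ko and in wt. The summed linear level of the 8 measured on all arrays, without Sftpd, was 87.8 to 133.7 in ko OVA, against 133.3 to 222.5 in ko saline, and 79.8 to 132.8 in wt OVA, against 142.3 to 146.9 in wt saline, and none of the 9 was at the floor throughout a group. Sftpc, the marker most specific to alveolar type 2 cells, changed by -2.63 in ko and by 1.34 in wt, and neither passed the test (limma adjusted p of 0.331 and 0.516). Club cell markers were called lower for 1 of 9 in ko and 2 of 9 in wt. The part of alveolar or club cells in the ENaC result was not tested.

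Ionocytes, rare airway cells that are known to carry much of the Cftr message, gave no called marker among those measured. Of 9 listed ionocyte markers 7 were measured, and Foxi1 and Atp6v1g3 were not. Of the 7, 0 rose and 0 fell for OVA in ko or in wt. The summed linear level was 32.1 to 49.6 in ko OVA, 46.2 to 53.7 in wt OVA, 26.3 to 39.9 in ko saline and 41.3 to 50.5 in wt saline. Atp6v1c2 dominated this sum, at log2 levels of 4.59 to 5.70, with every other marker at 0.52 or less. The mean log2 level of the 7 markers was lower in wt OVA (-1.184 to -1.060) than in wt saline (-1.003 to -0.865). In ko it overlapped, at -1.390 to -1.038 after OVA and -1.283 to -1.134 after saline. Atp6v0d2 was at the floor throughout ko OVA, ko saline and wt saline, and Bsnd throughout ko saline. Ascl3, an ionocyte transcription factor, changed by -0.12 in ko and -0.46 in wt, with limma adjusted p of 0.871 and 0.0698. Every wt OVA array lay below every wt saline array for Ascl3, and the ko groups overlapped. The part of ionocytes in the Cftr values was not tested. Markers of ciliated cells were called higher for 0 of 8 in ko, 2 of 8 in wt and 6 of 8 over both genotypes. All 8 had positive changes in ko (median 0.44) and in wt (median 0.46). The summed linear level of the 6 measured on all arrays was 126.9 to 167.9 in ko OVA, against 104.2 to 143.5 in ko saline, and 141.0 to 183.5 in wt OVA, against 107.9 to 136.5 in wt saline. The part of ciliated cells in the results over both genotypes was not tested.

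Of the markers of ciliated, club and basal cells, 0 of the 8, 9 and 9 measured were at the floor throughout any group. The same held for the 9 alveolar and 10 submucosal gland markers, so this does not check the label of airway epithelium. Of 9 mast cell markers, 1 rose for OVA in ko and 7 rose in wt. Their summed linear level was 89.7 to 137.2 in ko OVA, against 79.5 to 100.3 in ko saline, and 53.6 to 61.7 in wt OVA, against 30.7 to 44.0 in wt saline. Of 12 striated muscle markers 0 were called for OVA in either genotype, and their median change was -3.25 in ko and -0.02 in wt. The summed level of the 11 measured on all arrays was 2.63 to 13.5 in ko OVA, against 3.32 to 496 in ko saline, and 2.48 to 350.3 in wt OVA, against 4.51 to 71.8 in wt saline, so single arrays differed widely within 3 of the groups. Of 10 submucosal gland markers 1 rose in ko and 0 in wt, of 9 basal cell markers 0 were called, of 7 macrophage markers 0 were called in ko and 1 fell in wt, and of 3 eosinophil markers 0 were called. Among the mast cell markers Mcpt1 was at the floor throughout both saline groups and Fcer1a throughout wt saline. The muscle marker Myh2 was at the floor on the 3 ko OVA arrays that measured it. Among macrophage markers Marco was at the floor throughout ko OVA and Msr1 throughout wt saline, and among eosinophil markers Siglecf was so in wt OVA and ko saline and Ccr3 in both saline groups. The part of these cells in the results was not tested.

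The comparison of genotypes gave no call among the 10 genes. After OVA, 0 of 10 were called between ko and wt, against 0.145% of all features (0.102% higher, 0.0431% lower). After saline 0 of 10 were called, against 0.162% (0.124% higher, 0.0377% lower). The interaction, which asks whether the OVA effect differed between ko and wt, gave 0 calls among all 18566 features by limma, with 569 features at an unadjusted p below 0.05.

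Slc26a4 had the largest genotype difference after OVA among the 10, at -1.38 ± 0.60 (95% interval -2.66 to -0.10), with an unadjusted p of 0.0359 and a limma adjusted p of 0.884. On 2 of the 4 ko OVA arrays it lay below every wt OVA array. Within the 3 slides that held both, the difference ran from -3.42 to 1.06, with no test. The interaction for Slc26a4 was -1.76 ± 0.84 (95% interval -3.57 to 0.05, limma adjusted p = 0.993). The saline difference was 0.37 ± 0.60, with 3 of the 4 wt values at the floor.

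Cftr was lower in ko after OVA by a difference of -0.99 ± 0.35 (95% interval -1.75 to -0.23, limma adjusted p = 0.884), and by -0.18 after saline. After saline the genotypes did not overlap for 1 of the 10 genes, against 4.05% of all features, and after OVA for 0 of 10, against 2.37%. That gene was Slc12a2, with a difference of 0.49 ± 0.24 (limma adjusted p = 0.817) and all 4 ko saline arrays above all 4 wt saline arrays. The ENaC genes differed between ko and wt after OVA by 0.07 (Scnn1a), 0.21 (Scnn1b) and 0.16 (Scnn1g), with intervals that spanned 0. For Scnn1b that interval was -0.54 to 0.95. A miss of the threshold does not show that the genotypes act alike.

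**Figure D4:**
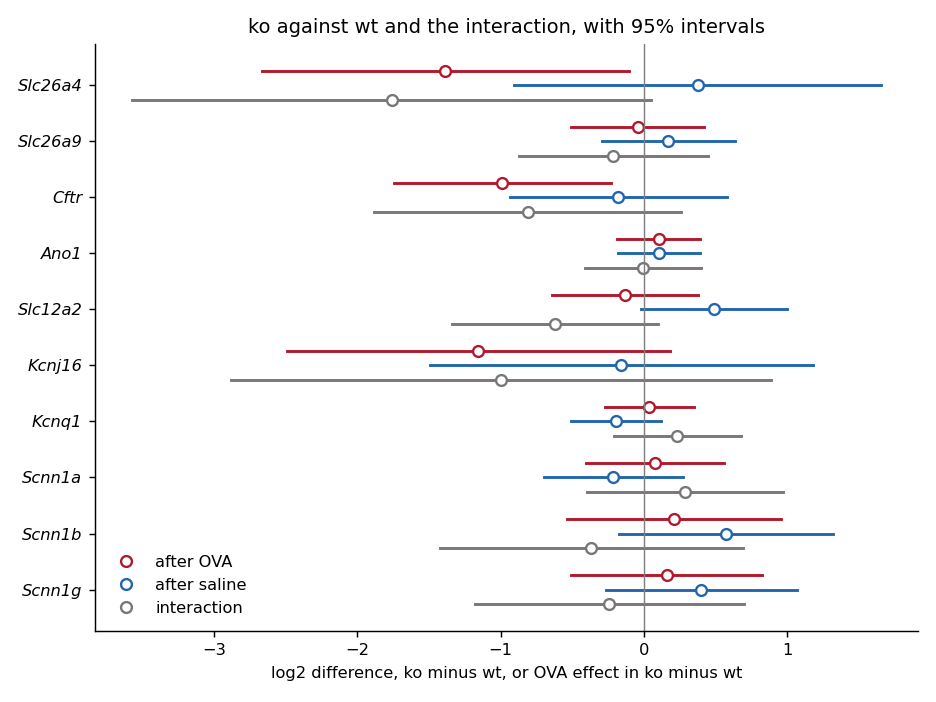
Points are log2 differences and lines their 95% intervals from limma, for ko minus wt after OVA (red) and after saline (blue) and for the interaction, the OVA effect in ko minus that in wt (grey). Open points have an adjusted p of 0.05 or more, and no point is filled. Slc26a4 after OVA (-1.38) and Cftr after OVA (-0.99) are the 2 red points whose intervals miss 0.

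Wider lists of ion transport genes place these results in their routes. Among 31 other measured chloride and bicarbonate transporters, 0 rose and 0 fell for OVA in ko, 1 rose and 0 fell in wt, and 2 rose and 1 fell over both genotypes. The median change over both was 0.03, against 0.01 for all features. Slc12a8, of the cation-chloride cotransporter family, changed by 1.80 in wt (limma adjusted p = 0.0408), with all 4 wt saline arrays at the floor, and by 1.45 over both genotypes. Slc4a2, an anion exchanger, rose by 0.42 over both genotypes (limma adjusted p = 0.0364), and Ano10 fell by 0.28 (0.0482).

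The 3 measured Clca genes, whose products are secreted or membrane proteins that modulate calcium-activated chloride currents, rose in both genotypes. Clca1, itself a mucous cell marker, changed by 5.41 ± 0.81 in ko and 5.34 ± 0.81 in wt (limma adjusted p of 0.00884 and 0.00488), with 3 of 4 arrays measured in each OVA group because the remaining spot was flagged. Clca3a1 changed by 1.71 in ko and 1.38 in wt (limma adjusted p of 0.0181 and 0.0270). Clca3a2 changed by 1.76 in ko and 1.43 in wt (0.0293 and 0.0437). Within a genotype these calls were less stable. Of 12 alternatives, 8 kept the Clca3a1 call in ko and 7 in wt, and 4 and 3 kept that of Clca3a2. These close paralogs may share signal between their probes.

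Of 19 regulators of CFTR and of the cotransporters, 0 were called in ko and 1 fell in wt, namely Wnk4, a kinase that acts on sodium and chloride cotransport. It averaged 0.22 ± 0.38 in ko OVA and 1.03 ± 0.23 in ko saline, and -0.08 ± 0.38 in wt OVA and 0.97 ± 0.08 in wt saline (SD, n = 4 each). Its change was -1.05 in wt (limma adjusted p = 0.0122) and -0.93 over both genotypes (0.0014). The adenosine receptor Adora2b rose by 0.64 over both genotypes (limma adjusted p = 0.0126).

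Of 14 regulators of ENaC, 0 were called in ko or in wt. Over both genotypes the channel-activating protease Prss8 (prostasin) fell by 0.43 (limma adjusted p = 0.048) and the protease Tmprss4 rose by 0.36 (0.0315). The median change of the 14 over both genotypes was -0.01, against 0.01 for all features.

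Of 19 sodium pump and proton transport genes, 1 rose in ko and 1 in wt, in each case Fxyd4, a small regulator of the sodium pump. Fxyd4 averaged 3.15 ± 0.29 in ko OVA and 1.89 ± 0.23 in ko saline, and 3.24 ± 0.32 in wt OVA and 1.79 ± 0.53 in wt saline (SD, n = 4 each). The change was 1.25 in ko (limma adjusted p = 0.0257), 1.45 in wt (0.0058) and 1.35 over both (0.00037).

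Of 15 other potassium channel genes, 0 were called in ko, 2 rose in wt, and 3 rose and 2 fell over both genotypes. Kcnj1, which encodes the inward rectifier ROMK, averaged -1.54 ± 1.19 in ko OVA and -3.08 ± 0.46 in ko saline, and -0.87 ± 0.30 in wt OVA and -3.32 ± 0.00 in wt saline, where 3 of 4 arrays were at the floor (SD, n = 4 each). Its change was 2.45 in wt (limma adjusted p = 0.00811) and 1.99 over both genotypes (0.00149). Kcnk6, a 2-pore-domain channel, changed by 1.17 in wt (0.0114). The accessory subunit Kcne2 fell by 1.19 over both genotypes (0.00531) and the calcium-activated channel Kcnn4 by 0.49 (0.0277). Kcne3, the known partner of Kcnq1 in airway epithelium, rose by 0.39 over both (0.0296) and is named here after its value was seen.

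Of 16 carbonic anhydrases and water channels, 0 were called in ko, 1 rose and 1 fell in wt, and 3 rose and 1 fell over both genotypes. Car2, the cytosolic carbonic anhydrase that supplies bicarbonate, changed by 1.26 in wt (limma adjusted p = 0.0119) and 1.01 over both (0.00261). Car5b, a mitochondrial form, changed by -0.69 in wt (0.00902) and -0.34 over both (0.0326). Car8 and the water channel Aqp11 rose by 0.41 and 0.50 over both genotypes.

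**Figure D5:**
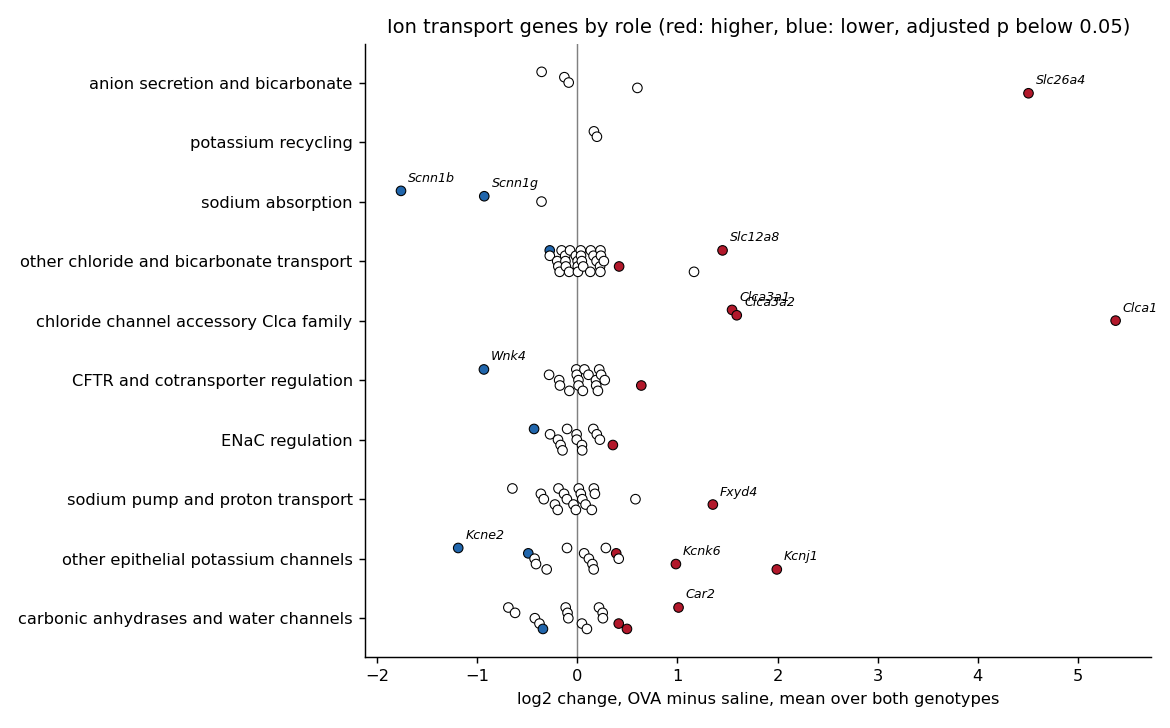
Each point is 1 gene, with the log2 change of OVA minus saline, averaged over ko and wt, on the horizontal axis and the gene lists down the page. Red and blue points are called higher and lower at a limma adjusted p below 0.05, and called genes with a change beyond 0.8 are named. Most points lie near 0, while Slc26a4 (4.51), Clca1 (5.38) and Kcnj1 (1.99) lie far to the right and Scnn1b (-1.76) and Kcne2 (-1.19) to the left.

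Of the 34 calls among these wider lists, 6 were kept under all alternatives and with any single array left out: those of Clca1, Clca3a1, Clca3a2, Fxyd4, Kcnj1 and Wnk4 over both genotypes. Among 17 genes known to be induced in epithelium by IL-13 or type 2 inflammation, 3 rose for OVA in ko, 2 in wt and 6 over both genotypes, and 0 fell. Fcgbp, an IgG-binding mucus protein, changed by 1.81 in ko and 1.99 in wt (limma adjusted p of 0.00279 and 0.000806). Chil4, a chitinase-like protein, changed by 5.80 in ko and 2.77 in wt (0.0013 and 0.0389), with 3 of 4 ko OVA arrays measured.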

How the data were processed

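RNA from brushed airway epithelium was labelled with Cy3 from 0.5 ug per sample and hybridised to 1-colour Agilent arrays, 1 sample per array. The authors made the spot intensities with Agilent Feature Extraction. Its version is 10.5.1.1 according to the file headers, while the submitters' processing notes name 10.1. The authors also deposited a table of log2 values, whose ranks within an array followed the raw spot medians (Spearman of at least 0.99999) and whose column medians were 5.90 to 5.94. Its normalization and centring are not given in the sources used here. It served as an alternative only.

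From the processed intensities, control and outlier-flagged spots were left out, repeated spots averaged, each array divided by its 75th percentile, values floored at -3.32 and log2 taken. A probe was kept if at least 4 of the 16 arrays had it well above background (25615 of 41174), and 24844 of all probes received a symbol through RefSeq accessions. The brightest probe stood for a gene, giving 18566 features, 12850 with a symbol. Group means were fitted in limma 3.58.1 (R 4.3.3) with empirical Bayes, and the procedure was tested on simulated data. Intervals are 95%. The number of arrays limits the precision.

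The 10 genes and all lists were chosen with earlier results of these data known. Named from wider lists were up to 4 called genes per list and comparison with the smallest p. The 3 genes of highest r were found for each of the 10 and are named here for Slc26a4, Cftr and Scnn1b. Of 308 listed genes 240 were measured. Replicate numbers were not taken as pairs. Deviations of same-numbered arrays had a median r of -0.01 (range -0.41 to 0.41), and those of differently numbered arrays -0.01. Arrays that shared a slide also had a median r of -0.01, so such an r cannot exclude pairing. Each of the 4 slides (1 scan time each) held 4 arrays. Promoter positions are on GRCm38.p6 and were not combined with array coordinates. The single values of 1 listed gene are not reported here.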

Additional observations from a re-analysis of the deposited data

Results flagged for a closer look

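Among 39 sets of 4 arrays examined, 9 had 1 array flagged as apart from the other 3 by Dixon's test. Chance gives this in about 1 of 20 sets of values that no floor has tied. Where the other 3 lay at the floor, any value off it was flagged whatever its distance. That rate therefore does not hold for the flagged Slc26a4 and Kcnj16 sets. Slc26a4 on wt saline replicate 2 was at -3.27, just off the floor at which the other 3 lay. Cftr was at -2.40 on wt saline replicate 4, against -2.96 for the nearest of the others. Kcnj16 was at -1.36 on wt saline replicate 4 and at -1.99 on ko saline replicate 2, with the others at the floor. Slc12a2 was at 1.67 on ko saline replicate 2, below its nearest neighbour at 2.02. On wt OVA replicate 1, the array with the most probes detected, Kcnq1 was at 2.83 and Scnn1a at 4.35, below neighbours at 3.22 and 4.99. Scnn1b was at -1.46 on ko OVA replicate 4, the array with the fewest probes detected, below -0.55. Scnn1g was at 2.70 on ko saline replicate 4, above 1.72. On ko saline replicate 4, Scnn1b, at 2.17, was also the highest value of its group.

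Probes that the comparisons did not use also gave signal. A second Cftr probe was well above background on 2 OVA arrays and 0 saline arrays, at -2.80 on wt OVA replicate 1 and at the floor on wt OVA replicate 2. A further Kcnj16 probe was so on 1 OVA array and 0 saline arrays, at the floor, and that array was wt OVA replicate 2, one of the pair with the most probes detected. The remaining Kcnj16 probe was so on 1 OVA and 1 saline array.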

How the results depend on the processing

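The values counted next are those of all 10 genes in all comparisons, and most were not called in the main fit. That fit called 2 genes in ko, 2 in wt and 3 over both genotypes, so the shares kept do not measure how stable the calls were. Under alternative processing, 688 of 700 values of the 10 genes kept their direction and side of the threshold, 12 lost a call and 0 reversed. With single arrays left out, 950 of 960 did, 8 lost a call and 2 gained one. Slc26a4 was called in wt and over both genotypes in all of these, with wt changes of 3.98 (normexp) to 5.99 (lower floor). With 2 genes called in ko, the count was 1 with median scaling, 1 with array position as a block and 0 with only the arrays compared. With 2 called in wt, it was 1 with median scaling, with position as a block, with the replicate block, with only the arrays compared, and without wt OVA replicates 1 and 2, an exclusion chosen after seeing the data. In each, Scnn1b was lost, and in ko with only the arrays compared Slc26a4 was lost too. Scnn1b had wt adjusted p of 0.0813 (median scaling), 0.199 (position), 0.0544 (replicate block) and 0.0625 (arrays compared). Its ko adjusted p was 0.139, 0.0665 and 0.181 with median scaling, position and only the arrays compared. Leaving out single arrays gave 1 to 2 genes in ko, 1 to 2 in wt and 3 to 4 over both genotypes, and 0 for the genotype comparisons and the interaction.

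Counts over all genes moved more. Median scaling gave 100 calls in wt (main 485; 39 higher, 61 lower), 35 in ko (main 139) and 379 over both (main 1200; 117 higher, 262 lower). It also shifted the median of all genes by -0.25 in wt and 0.32 for ko against wt after OVA. Quantile normalization split the calls over both genotypes into 612 higher and 594 lower. Slide as a block gave 747 over both and 1 for the interaction. Position as a block gave 94 in wt, 525 over both and 15 for ko against wt after saline (main 30). With only the arrays compared there were 235 in wt, 7 in ko and 7 for ko against wt after OVA (main 27). For ko against wt after saline there were 46 calls with a lower floor and 55 with the values of the series table. Without wt OVA replicates 1 and 2 there were 161 in wt and 3 for the interaction. Leaving out single arrays gave 235 to 543 calls in wt, 69 to 168 in ko, 762 to 1229 over both, 25 to 47 and 25 to 31 for ko against wt after saline and after OVA, and 0 to 3 for the interaction. The replicate block, for numbers not taken as pairs in the main fit, gave 370 in wt, 103 in ko and 1032 over both. Causes were not tested. Signal over background limits Kcnj16, Cftr and saline Slc26a4.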
